A study of Mus musculus with 6 samples.

Results

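Thrombospondins, transforming growth factor beta induced protein (Tgfbi) and their receptors were examined in haematopoietic stem cells (HSC) of wildtype and PU.1 knockdown mice. The members were the probe sets that the platform annotation pairs with a single symbol among Thbs1, Thbs2, Thbs3, Thbs4, Tgfbi, Postn, Sparc, Cd47 and Cd36. This rule gave 23 of the 44991 probe sets and 9 of 18186 named genes. Thbs1 also appears on 1 probe set that carries the symbol of another gene, which was left out. The family was chosen by the measured KD and WT intensities of Tgfbi and Thbs4 in these same arrays, and its other genes were added by symbol. The differences of Tgfbi and Thbs4, and of the other members in the same contrast, are therefore given as a description and without a test of their own.

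Both groups were FACS-sorted bone marrow HSC, with 3 arrays from wildtype animals (WT) and 3 from animals with a PU.1 knockdown (KD). Each array held RNA pooled from 3 animals, amplified in 2 rounds and read on an Affymetrix whole-genome mouse array. The sources used here do not give the means of lowering PU.1, the strain, the age of the animals or the surface markers of the sort. PU.1, the product of Spi1, is an ETS family transcription factor of myeloid and B lymphoid development, and the series title concerns Jun family factors in leukaemic stem cells induced through it.

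Thrombospondins are secreted, calcium-binding glycoproteins of the extracellular matrix that act on cells more than they build structure. Thbs1 and Thbs2 form trimers, while Thbs3 and Thbs4 form pentamers and lack the type 1 repeats through which Thbs1 and Thbs2 bind the scavenger receptor CD36. The carboxy-terminal part of Thbs1 binds CD47, a widely expressed membrane protein that also engages SIRP alpha on macrophages as a signal against phagocytosis. Thbs1 is stored in platelet alpha granules and can activate latent TGF-beta. Tgfbi and periostin (Postn) are related proteins built of fasciclin domains that bind integrins, and Tgfbi is named for its induction by TGF-beta. Sparc is a collagen-binding matricellular protein of bone, stroma and megakaryocytes.

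The targeted gene was lower in the library set labelled KD. Spi1 (1418747_at) read 1120, 718 and 1053 intensity units in WT pools 1, 2 and 3 and 362, 360.4 and 119 in KD pools 1, 2 and 3. The median intensity of the 6 arrays lay between 81.4 and 91.5 units, and 264 to 409 values per array were below 0. All 8 markers measured for HSC and early progenitors (Kit, Slamf1, Procr, Hlf, Meis1, Mecom, Cd34 and Flt3) were above the array median on all 6 arrays. WT pool 2 had the highest sum of these markers, 15150 units beside 7162 to 8918 in the other pools. After Benjamini-Hochberg adjustment over all 44991 probe sets, limma called 0 at the threshold of 0.05 (0%), with 0.171 as the smallest adjusted p, while 3200 had an unadjusted p under 0.05. Differences are KD minus WT on the log2(intensity + 16) scale with their standard error (SE) from limma. Group means are given ± SD (n = 3 pools), which is the spread between these pools. The SE and p-values of limma rest on a moderated variance, which combines that spread with the variance over all probe sets.

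Among the 23 member probe sets, the group of 3 KD pools lay wholly below or wholly above the WT pools in 6. Such separation was found in 12.9% of all probe sets, 5.26% of them lower and 7.59% higher in KD. The 3 lower member probe sets all belonged to Tgfbi, and the 3 higher belonged to Thbs4 (1 probe set) and Cd47 (2 probe sets). Without WT pool 2, or without KD pool 1, 10 member probe sets had separate groups. Fewer arrays separate more easily, and the share over all probe sets was not computed for these settings, so the rise is not read as a result. The limma fit gave 5 members an unadjusted p under 0.05, 3 lower and 2 higher, beside 7.11% of all probe sets, 3.33% lower and 3.78% higher. After Benjamini-Hochberg adjustment over all probe sets, limma called 0 of the 23. The contrast was used to propose the members, and the Tgfbi probe sets read the same gene, so these shares are not evidence about the family. The median difference of the 23 was 0.028, beside 0.009 over all probe sets, and 11 were lower and 12 higher in mean. The brightness of a probe set depends on its probes as well as on the transcript, so levels are compared between pools and not between genes.

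**Figure D1:**
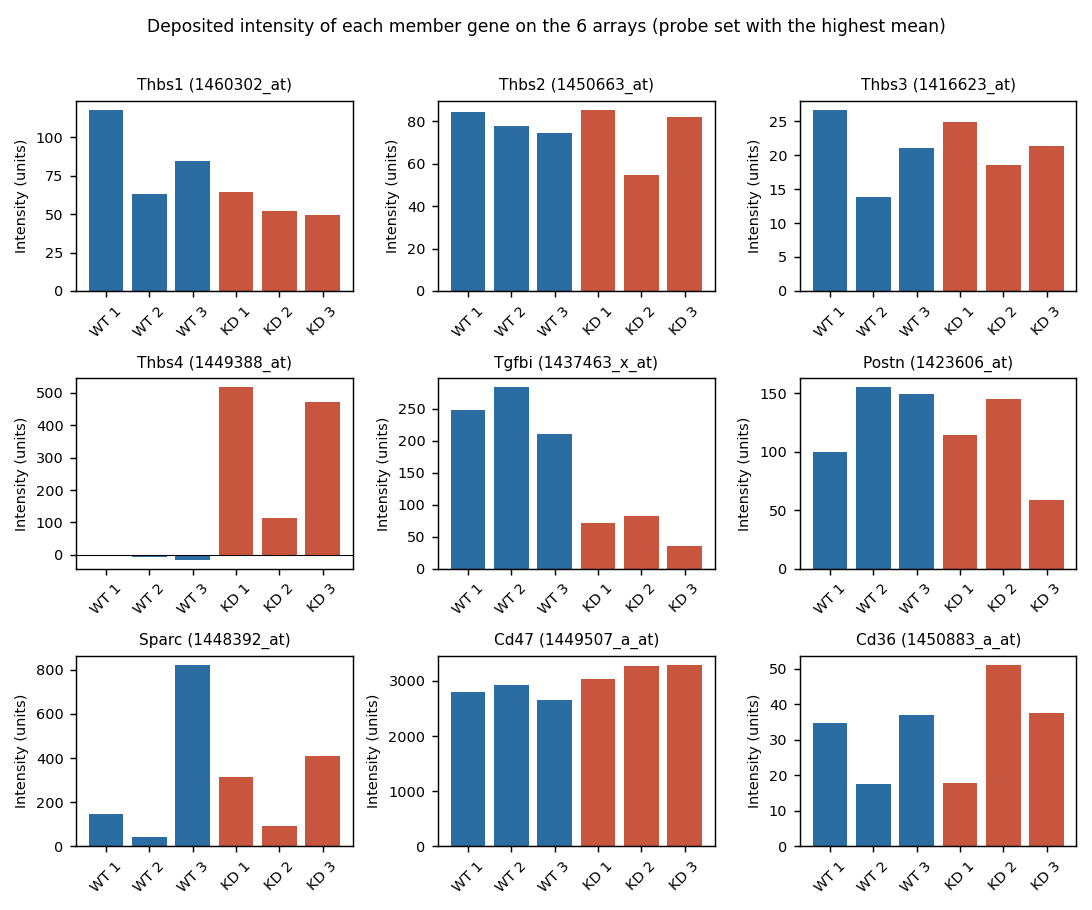
Deposited intensity (y axis, linear units, a separate scale in each panel) on the 3 WT arrays (blue) and 3 KD arrays (red), for the probe set of highest mean of each of the 9 genes. Tgfbi is lower and Thbs4 higher in every KD pool, Sparc ranges from 43.5 to 821 within WT, and the remaining genes overlap or, for Cd47, differ little.

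Thbs4 encodes the thrombospondin best known from tendon, muscle and nervous tissue. Its probe set 1449388_at read -1.35, -6.54 and -15.9 units in WT pools 1, 2 and 3. In KD pools 1, 2 and 3 it read 518, 113 and 473 units. The gene was thus at or below background in each WT pool and above the array median in each KD pool, with KD pool 2 the lowest of the 3. All 3 WT values were under 1 and were set to the floor, so no fold is given. The KD mean was 368 ± 222 units. The fitted difference of 4.30 (SE 0.50) is set by the floor and the added constant: it was 7.31 with a constant of 1 and 2.60 with a constant of 64. Without KD pool 2 it was 4.97. The floor gives the WT pools an SD of 0, and the gene was chosen by these values, so no p is given for it.

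Summed marker levels of other cell types were set beside Thbs4. The 9 fibroblast and stromal markers measured summed to 3930, 1454 and 3837 units in KD pools 1, 2 and 3, the same order as Thbs4. In WT pools 1, 2 and 3 they summed to 1848, 1060 and 5447, and WT pool 3, the highest of all 6, had Thbs4 below 0. Pdgfrb, a receptor gene of this list, was separate between the groups like Thbs4, at 90.6 to 289 units in WT and 496 to 871 in KD. Pdgfra, of the same list, was separate in the other direction, at 51.1 to 53.9 units in WT and 36.8 to 44.2 in KD. By gene, 4 of the 9 markers were lower and 5 higher in fitted log2 mean. The 9 megakaryocyte and platelet markers summed to 8401, 2819 and 8382 in KD pools 1, 2 and 3, which is also the order of Thbs4. In WT pools 1, 2 and 3 they summed to 16432, 7980 and 16178. The part of stromal or megakaryocyte RNA in the Thbs4 difference was not tested.

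Tgfbi was lower in KD on all 4 of its probe sets. On 1437463_x_at it read 247, 283 and 211 units in WT pools 1, 2 and 3 and 71.7, 83.0 and 36.0 in KD pools 1, 2 and 3. The lowest WT pool lay above the highest KD pool, and KD pool 3 was the lowest of all. The means were 247 ± 36.2 and 63.6 ± 24.5 units, which puts KD at 0.257 of WT, and the log2 difference was -1.69 (SE 0.26). A further pair of probe sets gave nearly the same values. On 1456250_x_at KD stood at 0.274 of WT (difference -1.57, SE 0.23), and on 1448123_s_at at 0.245 (difference -1.71, SE 0.28).

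The suffixes of these 3 probe sets, _x_at and _s_at, mark probes that can match other transcripts too. The fourth Tgfbi probe set, 1415871_at, carries no such suffix and read 122, 122 and 106 units in WT and 111, 41.2 and 64.7 in KD pools 1, 2 and 3. KD pool 1 lay inside the WT range there, and the difference of -0.57 (SE 0.29) was smaller than on the other probe sets. Without KD pool 2 it was -0.29, and without KD pool 1 it was -0.91. The probe sets therefore gave the same direction and disagreed on the size and on KD pool 1. KD pool 3 had both the lowest Spi1 (119 units) and the lowest Tgfbi on 3 of the 4 probe sets. Within WT, the pool with the lowest Spi1 (pool 2, 718 units) had the highest Tgfbi on 1437463_x_at, so the order of pools was not shared there.

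**Figure D2:**
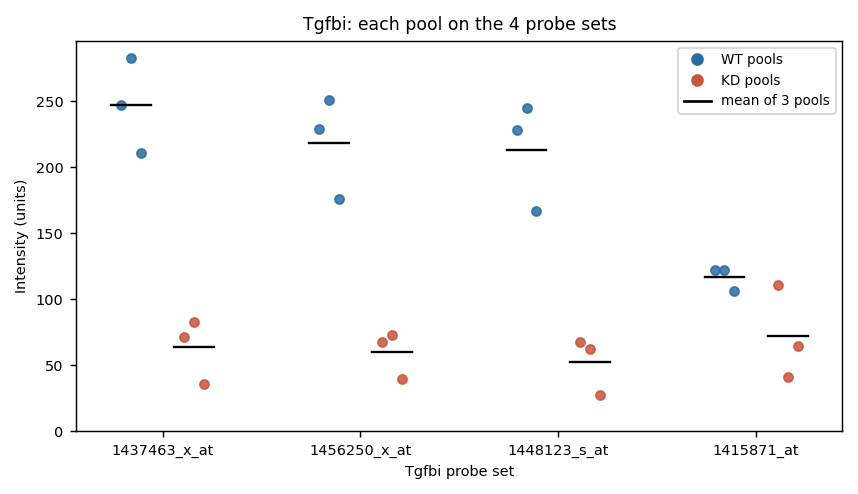
Deposited intensity (y axis, linear units) of the 4 Tgfbi probe sets (x axis), with a point for each of the 3 WT pools (blue) and 3 KD pools (red) and a bar at each mean. The groups are separate on 3 probe sets and overlap on 1415871_at, where 1 KD pool reads 111 units.

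Tgfbi is abundant in monocytes and macrophages, and in bulk RNA fewer cells of a type and less RNA per cell cannot be told apart. The 8 monocyte and macrophage markers measured summed to 5451, 3527 and 4928 units in WT pools 1, 2 and 3 and to 5481, 3843 and 3446 in KD pools 1, 2 and 3, so these sums overlapped between the groups. By gene, all 8 had a lower fitted log2 mean in KD, with a median difference of -0.22. Csf1r and Lyz2, the largest parts of the sum in each pool, had differences that round to 0. WT pool 2, with the lowest monocyte sum of its group, had the highest Tgfbi on 1437463_x_at. All 8 of these markers stayed above 1 unit on every array. Of them 2, Cd14 (difference -0.96) and Fcgr1 (difference -0.31), had an unadjusted limma p under 0.05. Over all genes that share was 7.63%, with 3.52% lower and 4.1% higher. Fcgr1 read only 22.4 to 36.4 units, below the array median on all 6 arrays. The markers were chosen with earlier results of these data known, so the count of 2 is a description. The sums of the 6 eosinophil markers measured were separate, at 12683, 2011 and 6642 units in WT and 1214, 598 and 243 in KD. By gene, 5 were lower and 1 higher in fitted log2 mean. Epx, Prg2 and Prg3 were each separate, while Siglecf, Ccr3 and Il5ra, whose difference rounds to 0, overlapped. Ccr3 was under 1 unit in KD pool 2. Within WT the eosinophil sum was lowest in pool 2, where Tgfbi was highest on 1437463_x_at. On 1415871_at, WT pools 1 and 2 both read 122 units. The 4 B lymphoid markers summed to 1618, 978 and 912 units in WT and 762, 687 and 390 in KD, so these sums were separate between the groups as well. By gene, Cd79b and Ms4a1 were separate, while Cd79a (difference -0.78) and Pax5 (difference 0.11) overlapped. The part of these cells in the Tgfbi difference was not tested.

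The promoter windows of Tgfbi and Thbs4 are shown because these genes gave the largest differences of the family, in opposite directions. Each is the 250 bases before the annotated start of transcription from RefSeq, build GRCm38.p6, 5′ to 3′ on the strand of the gene. Tgfbi is on the plus strand at chr13:56609336-56609585 and Thbs4 on the minus strand at chr13:92794819-92795068. Capitals mark a PU box, the letters GAGGAA on either strand, a purine-rich core bound by PU.1.
Tgfbi: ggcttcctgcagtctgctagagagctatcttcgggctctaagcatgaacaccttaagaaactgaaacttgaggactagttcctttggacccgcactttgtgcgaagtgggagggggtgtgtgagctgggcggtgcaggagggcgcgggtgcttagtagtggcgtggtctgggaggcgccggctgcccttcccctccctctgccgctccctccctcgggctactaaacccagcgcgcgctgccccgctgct
Thbs4: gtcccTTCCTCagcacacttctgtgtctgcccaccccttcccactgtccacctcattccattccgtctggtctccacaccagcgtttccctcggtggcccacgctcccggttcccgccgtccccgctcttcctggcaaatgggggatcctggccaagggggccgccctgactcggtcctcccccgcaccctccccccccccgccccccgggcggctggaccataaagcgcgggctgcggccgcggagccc

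The Thbs4 window held 1 PU box, on the opposite strand, from 245 to 240 bases before the start, and the Tgfbi window held none. Windows were found for 8 of the 9 genes, 10 in all since Postn and Cd47 had 2 starts each, and none was found for Thbs1. A PU box was present in 2 of these 10 windows, those of Thbs4 and Thbs3, and in 23.3% of all 32851 windows of this length. The AP-1 letters TGANTCA (in 6.75% of all windows) and the Egr letters GCGNGGGCG (in 4.7%) were in none of the 10. TATAAA was in the windows of Thbs2 and of 1 Postn start, and in 12.4% of all windows. None of these motifs overlapped another in the windows shown. The GC content was 62.4% for Tgfbi and 70.8% for Thbs4, beside a median of 52.4%. These letters describe the windows and say nothing about binding.

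Thbs1, the platelet and stromal thrombospondin that binds both CD36 and CD47, had lower KD means on both of its probe sets. On 1460302_at it read 118, 63.1 and 84.7 units in WT pools 1, 2 and 3 and 64.7, 52.1 and 49.4 in KD pools 1, 2 and 3. KD pool 1 lay just above WT pool 2, so the groups overlapped. The means were 88.6 ± 27.8 and 55.4 ± 8.15 units, with a difference of -0.46 (SE 0.22), and without WT pool 1 the difference was -0.27. On 1450377_at the means were 65.3 ± 6.02 and 51.4 ± 8.67 units (difference -0.22, SE 0.15), and all 6 values were under the array median. Within WT, the megakaryocyte and platelet markers and Thbs1 on 1460302_at were both lowest in pool 2, while within KD the marker sum was lowest in pool 2 and Thbs1 in pool 3. Of those 9 markers, 4 had an unadjusted limma p under 0.05 and all 4 were lower in KD, beside 3.52% of all genes lower and 4.1% higher. The markers were chosen with earlier results of these data known, so this count is a description. Their part in the Thbs1 difference was not tested.

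Thbs2, the other trimeric thrombospondin, differed little. On 1450663_at it read 84.5, 77.7 and 74.5 units in WT pools 1, 2 and 3 and 85.6, 54.6 and 82.2 in KD pools 1, 2 and 3 (difference -0.02, SE 0.18), and the sign turned without KD pool 2 (0.15). KD pool 2 alone lay below the WT range. On 1422571_at the difference was -0.05 (SE 0.14), at 33.1 to 43.5 units in the 6 pools. The third probe set, 1447862_x_at, was under 1 unit in WT pool 2 and in KD pool 2 and gave 0.49 (SE 0.42). This value rested on KD pool 1 (38.3 units), since without it the difference was -0.02. Thbs3, a pentameric thrombospondin, read 13.8 to 26.7 units in WT and 18.6 to 24.9 in KD on its single probe set 1416623_at (difference 0.08, SE 0.17), below the array median on all 6 arrays, and the difference was -0.05 without WT pool 2. Neither gene is resolved well at these intensities.

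Postn, the integrin-binding relative of Tgfbi and a product of bone and stromal cells, read 100.1, 155 and 149 units in WT pools 1, 2 and 3 on 1423606_at. In KD pools 1, 2 and 3 it read 114, 145 and 58.7 units. KD pool 3 alone fell outside the WT range, and the difference of -0.27 (SE 0.31) became 0.08 without that pool. Postn kept its sign in the other 14 of 15 alternative settings, so its direction rested on KD pool 3.

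Sparc varied more between pools of the same group than between the groups. On 1448392_at it read 146, 43.5 and 821 units in WT pools 1, 2 and 3 and 314, 94.5 and 408 in KD pools 1, 2 and 3. The highest and the lowest of the 6 were both WT pools, 3 and 2. The difference on the log2 scale was 0.37 (SE 0.92), although the mean intensity was lower in KD (272 ± 161 beside 337 ± 422 units), so its sign depends on the scale. It was -0.50 without WT pool 2 and 1.42 without WT pool 3. In both groups pool 2 was lowest and pool 3 highest, and with the replicate number as a block the difference was 0.37 (SE 0.42). A second probe set, 1416589_at, gave the same order of the 6 pools, with 24.3 to 838 units in WT. The third, 1458204_at, stayed between 55.2 and 73.8 units in all pools, below the array median, and did not show this spread.

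The type I collagen genes, which mark osteoblasts and fibroblasts, had a like spread. Col1a2 (1450857_a_at) read 972, 357 and 3232 units in WT pools 1, 2 and 3 and 2237, 486 and 1839 in KD pools 1, 2 and 3. Col1a1 (1455494_at) read 328, 87.8 and 1533 units in WT and 865, 90.2 and 750.4 in KD. For both genes and for Sparc on 1448392_at and 1416589_at, WT pool 3 was highest and WT pool 2 lowest, with KD pool 2 next to lowest. Of the other 7 stromal markers measured, Pdgfra, Dcn, Lum, Lepr, Cxcl12 and Col3a1 read at most 149 units in any pool. Cxcl12 shared the pool order just given, at 119 units in WT pool 3, 42.2 in WT pool 2 and 43.2 in KD pool 2. Lum was also highest in WT pool 3 (71.2 units) and lowest in WT pool 2 (11.2), but KD pool 1 was next to lowest. Pdgfra, Dcn, Lepr and Col3a1 did not share both the highest and the lowest pool. Pdgfrb read 90.6 to 289 in WT and 496 to 871 in KD, and it did not follow the collagen genes. Across the stromal list, 3 of 9 genes were above the array median on all 6 arrays and 3 were below it on all. The part of stromal RNA in the Sparc values was not tested.

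**Figure D3:**
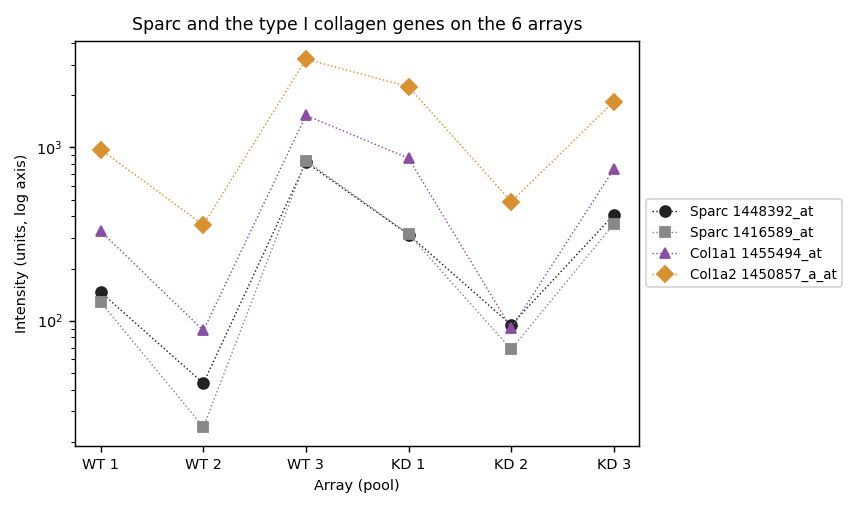
Deposited intensity (y axis, log scale) of 2 Sparc probe sets and of Col1a1 and Col1a2 on the 6 arrays (x axis), with dotted lines joining the points of a probe set only as a guide. All 4 are highest in WT pool 3 and lowest in WT pool 2, where Sparc 1448392_at reads 821 and 43.5 units.

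Cd47 encodes the receptor of Thbs1 and ligand of SIRP alpha, and its brightest 3 probe sets read 1339 to 3286 units in every pool. Its 5 probe sets did not give a common direction. On 1449507_a_at it read 2808, 2932 and 2657 units in WT pools 1, 2 and 3 and 3039, 3275 and 3286 in KD pools 1, 2 and 3. The groups were separate there, with a difference of 0.17 (SE 0.13). The log2 SD between pools was 0.07 in WT and 0.04 in KD, and the SE also draws on the variance of all probe sets. On 1459908_at it read 129.6, 107 and 117 units in WT and 144, 147 and 202 in KD, again separate, with a difference of 0.51 (SE 0.16).

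The other 2 bright Cd47 probe sets had the opposite sign. On 1428187_at the means were 2423 ± 433 units in WT and 2085 ± 333 in KD (difference -0.20, SE 0.18), and on 1419554_at they were 2066 ± 666 and 1698 ± 338 (difference -0.24, SE 0.24). WT pool 2 was highest on both, and without it the latter difference was 0.01. The fifth, 1430997_at, gave 0.13 (SE 0.27), which was -0.16 without WT pool 1. Cd47 transcripts end at several sites, and which form each probe set reads was not analysed here.

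Cd36 encodes the scavenger and fatty acid receptor that binds the type 1 repeats of Thbs1 and Thbs2, found on platelets, monocytes, erythroid precursors and fat cells. All 3 of its probe sets were below the array median on all 6 arrays. On 1450883_a_at it read 34.8, 17.6 and 37.1 units in WT pools 1, 2 and 3 and 17.8, 51.0 and 37.4 in KD pools 1, 2 and 3. WT pool 2 and KD pool 1 were low and KD pool 2 was high, and the groups overlapped (difference 0.17, SE 0.28, but -0.06 without KD pool 2 and -0.03 without WT pool 2). The other probe sets gave 0.11 (SE 0.14) and 0.26 (SE 0.27), at 6.0 to 24.9 units. A difference in Cd36 was not detectable at these intensities.

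**Figure D4:**
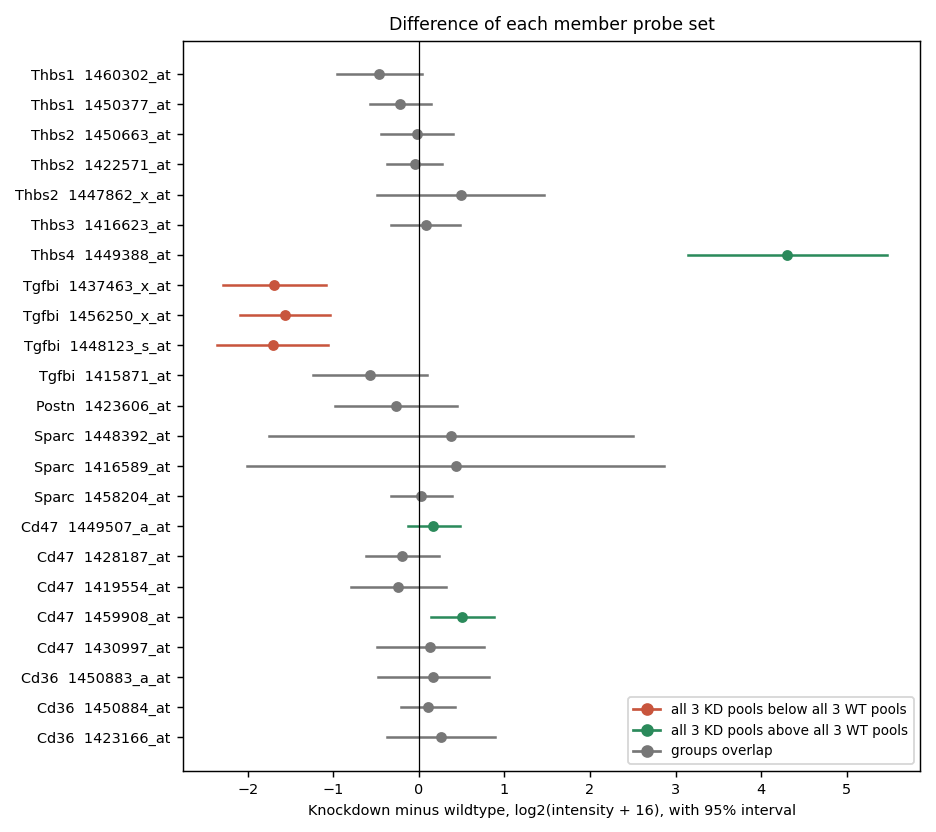
Difference KD minus WT (x axis, log2(intensity + 16) scale) of the 23 member probe sets, with the 95% interval of the limma fit, coloured by whether the 3 KD pools lay wholly below (3 Tgfbi probe sets), wholly above (Thbs4 and 2 Cd47 probe sets) or among the WT pools. The intervals of 2 Sparc probe sets, 1448392_at and 1416589_at, are the widest, and the Thbs4 value depends on the floor.

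Genes around the members were taken from 4 lists, each gene by its probe set of highest mean. Of 52 genes measured, limma gave 2 an unadjusted p under 0.05, or 3.85%, beside 7.63% of all genes, 3.52% lower and 4.1% higher. Benjamini-Hochberg adjustment over all probe sets left 0. The count was 10 without WT pool 2, 1 without WT pool 1 and 4 without KD pool 3. The 2 genes with all pools were Itga6, the integrin alpha 6 subunit of laminin receptors, and Smad6, an inhibitory Smad.

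Other receptors and partners of the members were lower in mean in 12 of 18 cases and higher in 6, with a median difference of -0.099 beside 0.018 over all genes. Itga6 (1422445_at) read 892, 1142 and 945 units in WT pools 1, 2 and 3 and 428, 578 and 725 in KD pools 1, 2 and 3. Every KD pool lay below every WT pool, with a difference of -0.72 (SE 0.18). Itgav, the alpha v integrin subunit through which Tgfbi and Postn bind, differed by -0.51 (SE 0.23) and had 1 KD pool (1019 units) inside the WT range of 925 to 1259.6. The members of smallest p with higher means were the Src family kinase gene Fyn (0.13, SE 0.15) and Cacna2d1 (0.12, SE 0.14), a calcium channel subunit and thrombospondin receptor of neurons.

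Matricellular and matrix neighbours had 0 of 16 genes at an unadjusted limma p under 0.05, with 6 lower and 10 higher in mean and a median difference of 0.047. Fn1, the fibronectin gene, differed by -0.71 (SE 0.39) and Ccn2, a matricellular growth factor-binding protein gene, by -0.37 (SE 0.18). Stab2, a scavenger receptor gene of sinusoidal endothelium, had 0.51 (SE 0.26) and Ccn3 0.31 (SE 0.23). Comp, the remaining thrombospondin family gene, read 44.8 to 46.0 units in WT and 42.6 to 63.7 in KD.

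TGF-beta, which Thbs1 activates and which induces Tgfbi, was followed in 2 lists. Its ligands and latency proteins had 0 of 8 genes at an unadjusted limma p under 0.05, and 6 of the 8 were higher in mean. Tgfb1 differed by 0.52 (SE 0.27), Tgfb3 by 0.34 (SE 0.16), Ltbp1 by -0.37 (SE 0.22) and Tgfb2 by -0.26 (SE 0.24). KD pool 2 stood out for Tgfb1, at 728 units beside 354 and 370.4 in KD pools 1 and 3. Of 11 TGF-beta responsive genes measured, 7 were higher and 4 lower in mean. Smad6 (1422771_at) read 28.4, 76.2 and 36.8 units in WT and 72.3, 69.1 and 79.9 in KD (difference 0.65, SE 0.26), and WT pool 2 lay inside the KD range. Pmepa1, an inhibitor of TGF-beta signalling, had 0.31 (SE 0.15). Skil, a repressor of Smad activity, had -0.68 (SE 0.30). Both lists held genes of either direction, and a part of TGF-beta in the lower Tgfbi values was not tested.

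**Figure D5:**
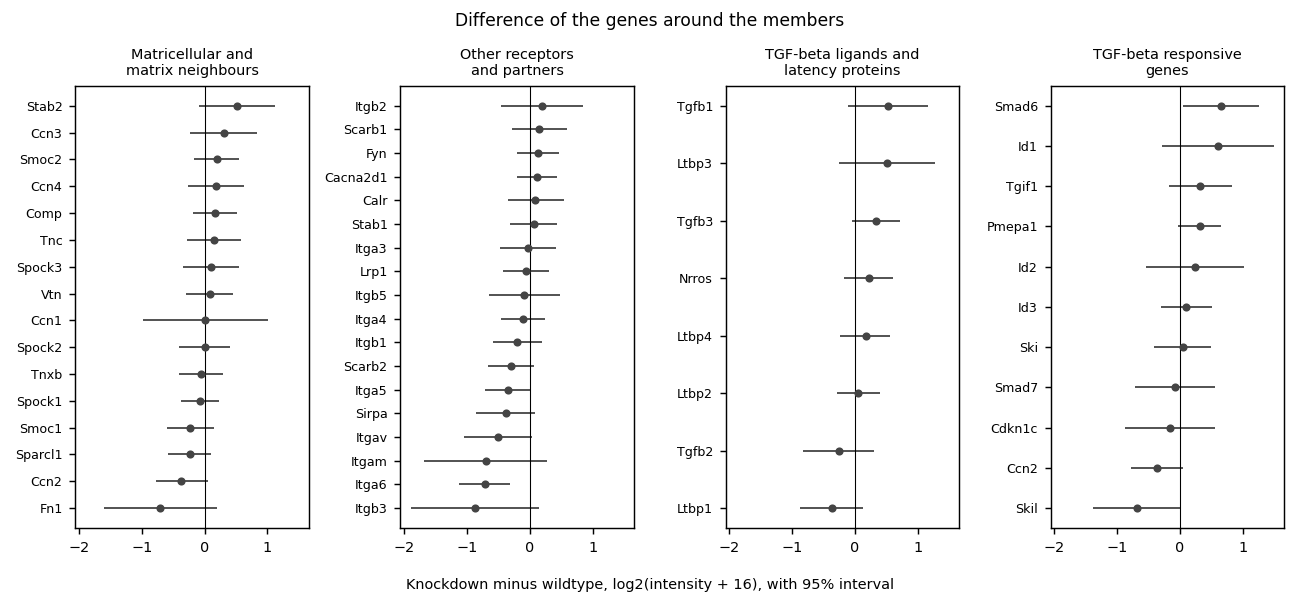
Difference KD minus WT (x axis, log2(intensity + 16) scale) with the 95% interval of the limma fit for the genes of the 4 lists around the members, sorted within each list. Most intervals include 0, and those of Itga6 (-0.72) and Smad6 (0.65) do not.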

How the data were processed

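The authors deposited a value table of intensity per probe set and array on a linear scale. RNA went through a micro-scale column kit, 2 rounds of amplification and biotin labelling, per the labels' protocols. The software, background correction and scaling of the values were not given in the sources used here. Repeated amplification favours the 3' ends of transcripts and blurs weak ones.

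Values under 1 were set to 1, log2(value + 16) was taken and the arrays were quantile normalised. All 44991 probe sets were fitted with lmFit and eBayes of limma 3.58.1 (R 4.3.3), two-sided, with 7.81 degrees of freedom and Benjamini-Hochberg adjustment over all. The fit was also run on simulated normal values with planted changes. These held no floored values, so that run does not bear on probe sets such as that of Thbs4. Figures used matplotlib 3.10.9.

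Members, gene lists, markers and the naming rule were chosen with earlier results of these data known. All members were named, with Spi1 and, in each list, up to 2 genes of smallest p per direction. The 3 genes most like Tgfbi and Thbs1 were also named. Comp, the collagen genes and single cell type markers were named after their values were seen. Of 34921 probe sets with 1 symbol, 930 with several and 9140 with none, only the first were named. Of 56 list genes 52 were measured, and the rest were not analysed here.

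Pools of equal number were not paired: the labels give no shared source. The number of arrays limits the precision.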

Additional observations from a re-analysis of the deposited data

How the results depend on the processing

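The alternatives were the values as deposited, median centring, constants of 1 and 64, a floor of 20 with no constant, a filter at the 40th percentile of the mean, eBayes with trend and robust, array weights, the replicate number as a block and each of the 6 arrays left out. Tgfbi kept its sign on each probe set in all of them, and Thbs1 and Thbs4 in each alternative in which they were tested. Tgfbi and Thbs4 were chosen by their values in these arrays, so their kept signs are a description. Thbs4, Thbs1 on 1450377_at and 6 other dim member probe sets fell under the filter, which left 15.

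Over all probe sets, limma called 0 in the main setting and 0 to 2 with 1 array left out. The 1 called without KD pool 2 was Thbs4, whose WT values are all at the floor with an SD of 0, so nothing is read from that call. At an unadjusted p under 0.05 the filter left 2094 of its 26994 probe sets, because fewer were tested, and the other alternatives gave 2408 to 3958. Of the 3200, 53.1% were higher in KD; without quantile normalisation the share was 34.4% and the median of all differences -0.048. Members at an unadjusted p under 0.05 numbered 4 to 7. Members with separate groups numbered 6 to 10 with 1 array left out, reaching 10 without WT pool 2 and 10 without KD pool 1. Fewer arrays separate more easily, and the share over all probe sets was not computed there. The list genes at an unadjusted p under 0.05 numbered 1 with a constant of 1, 4 with a constant of 64, 1 with the filter, 4 with trend and robust, 9 with array weights, 8 with the replicate block and 1 to 10 with 1 array left out. The cause was not tested.

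The labels link pools of the 2 groups by number only and do not say whether they share a source. The correlation of their deviations from the group means was 0.178, 0.061 and -0.0392 for pairs 1, 2 and 3. The value of pair 1 was the largest of all WT and KD pairings, while WT pool 2 correlated best with KD pool 3 (0.154). The replicate block gave 3314 probe sets and 6 members at an unadjusted p under 0.05.

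The dim probe sets of Thbs2, Thbs3 and Cd36 limit what can be detected, and 8 of the 23 members were below the array median on all 6 arrays.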

Other observations

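Genes whose log2 values followed Tgfbi (1437463_x_at) most closely over the 6 arrays were Tek, the angiopoietin receptor gene of HSC and endothelium (Pearson r = 0.994), Slc35c2 (0.988) and Rgs2 (0.988), a regulator of G protein signalling. For Thbs1 (1460302_at) they were Gripap1 (0.993), Dusp18 (0.991) and Slc30a7 (0.987), a zinc transporter gene. Each was picked from 19188 probe sets, of which 55 for Tgfbi and 44 for Thbs1 had r over 0.95. The 6 arrays share their group difference and scaling, so these values describe likeness across these arrays and are given without a test.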
